A study of Homo sapiens with 16 samples.

Results

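The 42 genes described here carry out homologous recombination, which mends broken DNA from an intact copy, and the Fanconi pathway, which clears crosslinks between DNA strands. They were taken by name from a curated list and found in both deposited count tables through the GENCODE 29 symbol of each gene ID, so they make up 42 of the 58735 genes in the tables. The rule uses no measured value, but the list was chosen with earlier results of these data known. Its shares, set beside those of all genes below, are therefore descriptions. The series measured messenger RNA in MDA-MB-231 and SUM159PT, human lines that the labels describe as wild-type triple-negative breast cancer cells. Each line was transfected in culture with a lipid reagent and either siYES1, an siRNA against the Src-family kinase YES1, or siNS, a control siRNA against firefly luciferase, and all libraries are from 48 h. Each siRNA had 4 libraries per line, 16 in all, and the lines stand for 2 tumours and no normal tissue. The design text calls the 4 libraries technical replicates, so every p-value below measures only the spread between these samples. Column headers for SUM159PT begin with a code unlike that line's name, so its identity rests on titles and labels.

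Broken DNA ends are first held and trimmed by MRE11, RAD50 and NBN with RBBP8, then cut back further by EXO1 and DNA2 into single strands. BRCA1 with BARD1, PALB2 and BRCA2 then prepares these strands for the exchange, the BCDX2 and CX3 complexes and RAD54 proteins help the search for the matching copy, and BLM with TOP3A or nucleases such as MUS81-EME1 separate the joined molecules. At a crosslink, a core complex of FANC proteins works with UBE2T, its ubiquitin-conjugating enzyme, to attach ubiquitin to FANCD2 and FANCI, which brings in nucleases. The intact copy is usually the sister chromatid, so the pathway works mainly in S and G2 phase, and inherited loss of BRCA1 or BRCA2 predisposes to breast cancer.

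Libraries held 15863961 to 21158617 counts in MDA-MB-231 and 15680459 to 23451253 counts in SUM159PT. YES1 itself averaged 13.8 ± 0.82 CPM (counts scaled to the depth of each library) in siYES1 and 63.2 ± 6.16 CPM in siNS in MDA-MB-231 (SD, n = 4 each), which left 21.8%. In SUM159PT it averaged 17.2 ± 1.80 CPM in siYES1 and 134 ± 23.8 CPM in siNS, which left 12.9%. ESR1 and PGR, which encode the hormone receptors, averaged at most 0.50 CPM in every group, while the mesenchymal gene VIM averaged 832 CPM in siYES1 and 489 CPM in siNS in MDA-MB-231, and 2279 CPM in siYES1 and 1312 CPM in siNS in SUM159PT. They come from a list of 9 markers of breast cancer lines. The levels of the others, ERBB2 and the epithelial markers, are not given here, so these values do not settle the identity of the lines. Of 6 markers of other cell types, HBB, ALB and CDH5 averaged at most 0.05 CPM in every group and PTPRC at most 0.72 CPM, while CD14 averaged 1.93 CPM in siYES1 and 8.39 CPM in siNS in MDA-MB-231 and 0.75 CPM in siYES1 and 3.6 CPM in siNS in SUM159PT. PECAM1 averaged 2.96 CPM in siYES1 and 6.94 CPM in siNS in MDA-MB-231, and 0.32 CPM in siYES1 and 1.94 CPM in siNS in SUM159PT. The part of these markers in the values below was not tested.

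A library that stands apart is siNS replicate 1 of SUM159PT. In it, 37 of the 42 repair genes were at their highest among the 4 siNS libraries of the line and 2 were at their lowest. Taking for each library the median, over the repair genes, of the log2 difference from the mean of the line's siNS libraries, it stood at 0.46, against -0.23, -0.08 and -0.05 in siNS replicates 2, 3 and 4. A list of 37 replication genes stood at 0.82 in the same library and at -0.30 to -0.15 in the other 3 siNS libraries, and 38 G2/M genes stood at 0.22 there and at -0.18 to -0.01 in the others. Counts of calls in SUM159PT are therefore given with this library and without it, as are the fold changes it moves most, and the part of replication or cell-cycle stage in its values was not tested.

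**Figure D1:**
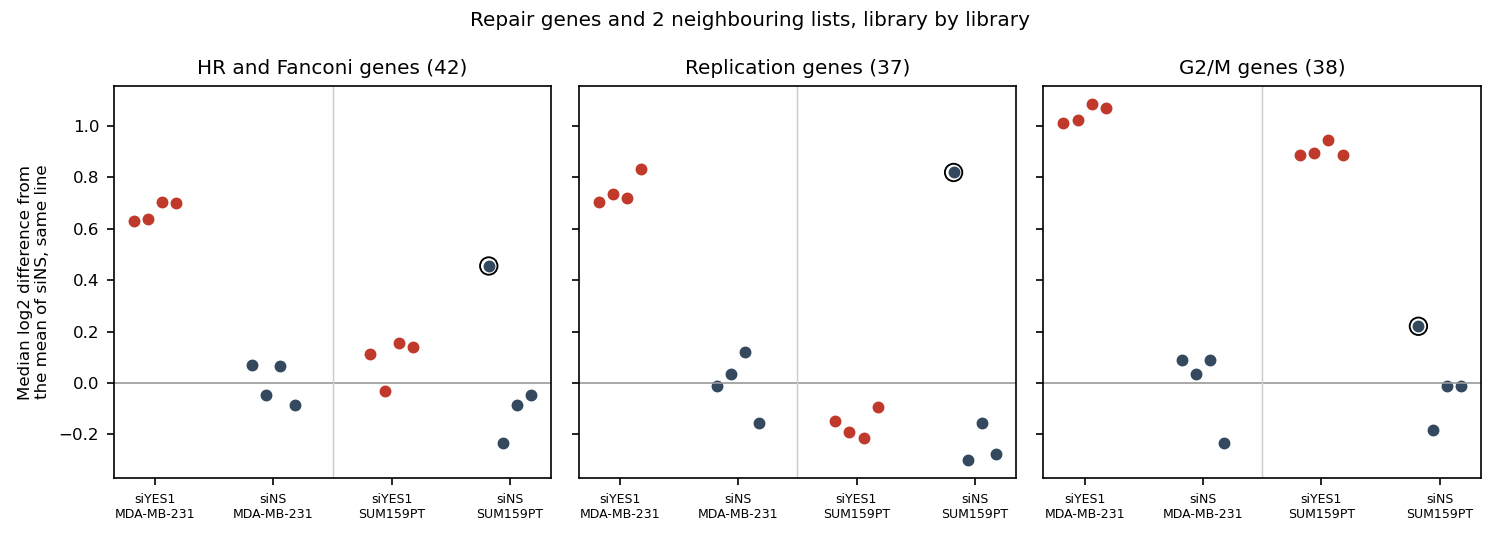
Median log2 difference of each library from the mean of the siNS libraries of its line, over the 42 repair genes, 37 replication genes and 38 G2/M genes; each point is a library, siYES1 in red and siNS in dark blue, and the ring marks siNS replicate 1 of SUM159PT. The 4 siYES1 libraries of MDA-MB-231 sit between 0.63 and 0.70 for the repair genes and all 4 siNS libraries of that line lie at 0.07 or lower, while in SUM159PT the ringed siNS library, at 0.46, lies above every siYES1 library.

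In MDA-MB-231 the messenger RNA of most of these genes was higher with siYES1 than with siNS. FANCD2, the protein that receives ubiquitin at a stalled fork, had 53.2, 56.6, 52.5 and 54.4 CPM in siYES1, against 14.7, 13, 16.4 and 11.5 CPM in siNS. All 4 siYES1 libraries lay far above all 4 siNS libraries, and the log2 fold change of siYES1 over siNS was 1.96 ± 0.10 (SE from edgeR's quasi-likelihood fit, adjusted p = 3.05e-10), the largest of the 42 in either line. Of the 42 genes, 33 rose, 1 fell (FANCF) and 8 did not pass the test, at a Benjamini-Hochberg adjusted p under 0.05 over all genes. The 33 are 78.6% of the repair genes, while 24.9% of the 14319 genes tested rose; 1 of 42 fell, while 27.5% of all genes did. The median log2 fold change of the repair genes was 0.65, against 0.00 over all genes tested, and 13 reached a fitted log2 fold change of 1. All 4 siYES1 libraries lay above all 4 siNS libraries for 30 of the 42, against 22.4% of all genes, and below them for 1, against 24.7%. In bulk RNA, fewer cells of a kind and less RNA per cell cannot be told apart, and the G2/M list moved too, with 37 of 38 genes higher and a median log2 fold change of 1.09; its part in the rise of the repair genes was not tested.

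In SUM159PT fewer of the 42 genes passed the test, and UBE2T and FANCD2 were among those that rose. UBE2T had 57.4, 53.2, 56.2 and 49.9 CPM in siYES1, against 38.7, 32.9, 34.3 and 34.7 CPM in siNS. The groups did not overlap, and UBE2T rose by 0.62 ± 0.09 on the log2 scale (edgeR adjusted p = 0.000193). Across the 42 genes 8 rose (MRE11, RBBP8, RAD51AP1, EME1, FANCG, FANCM, UBE2T and FANCD2), 2 fell (NBN and FANCF) and 32 did not pass the test. That is 19.0% rising, near the 17.7% of all 14469 genes tested, and 4.76% falling, while 19.0% of all genes fell. Their median log2 fold change was 0.01, against -0.03 over all genes, and 6 had all siYES1 libraries above all siNS libraries (18.2% of all genes) and 1 had them all below (18.6% of all genes).

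Without siNS replicate 1, 16 repair genes rose in SUM159PT, among them all 8 named above, and 3 fell, with a median of 0.24, while 21.0% of all genes rose and 21.5% fell. RAD50, DNA2, RAD51B, RAD54B, RMI2, FANCA, FANCI and POLQ joined the risers, with log2 fold changes of 0.39 (RAD50) to 1.37 (RMI2), and FANCE joined the fallers at -0.29 (edgeR adjusted p = 0.0319). BRCA1 then stood at 0.16, BRCA2 at 0.36, BRIP1 at -0.23 and XRCC2 at -0.10, and none of these 4 passed the test. Without siYES1 replicate 3, 4 of the 42 rose, while 14.7% of all genes did. Scaling SUM159PT by total counts moved the median of all genes to -0.20 and that of the repair genes to -0.17; of the calls over all genes 25.0% were then higher, against 48.2% with TMM scaling, and 2 repair genes rose and 3 fell. With that scaling 9.63% of all genes rose and 28.8% fell.

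**Figure D2:**
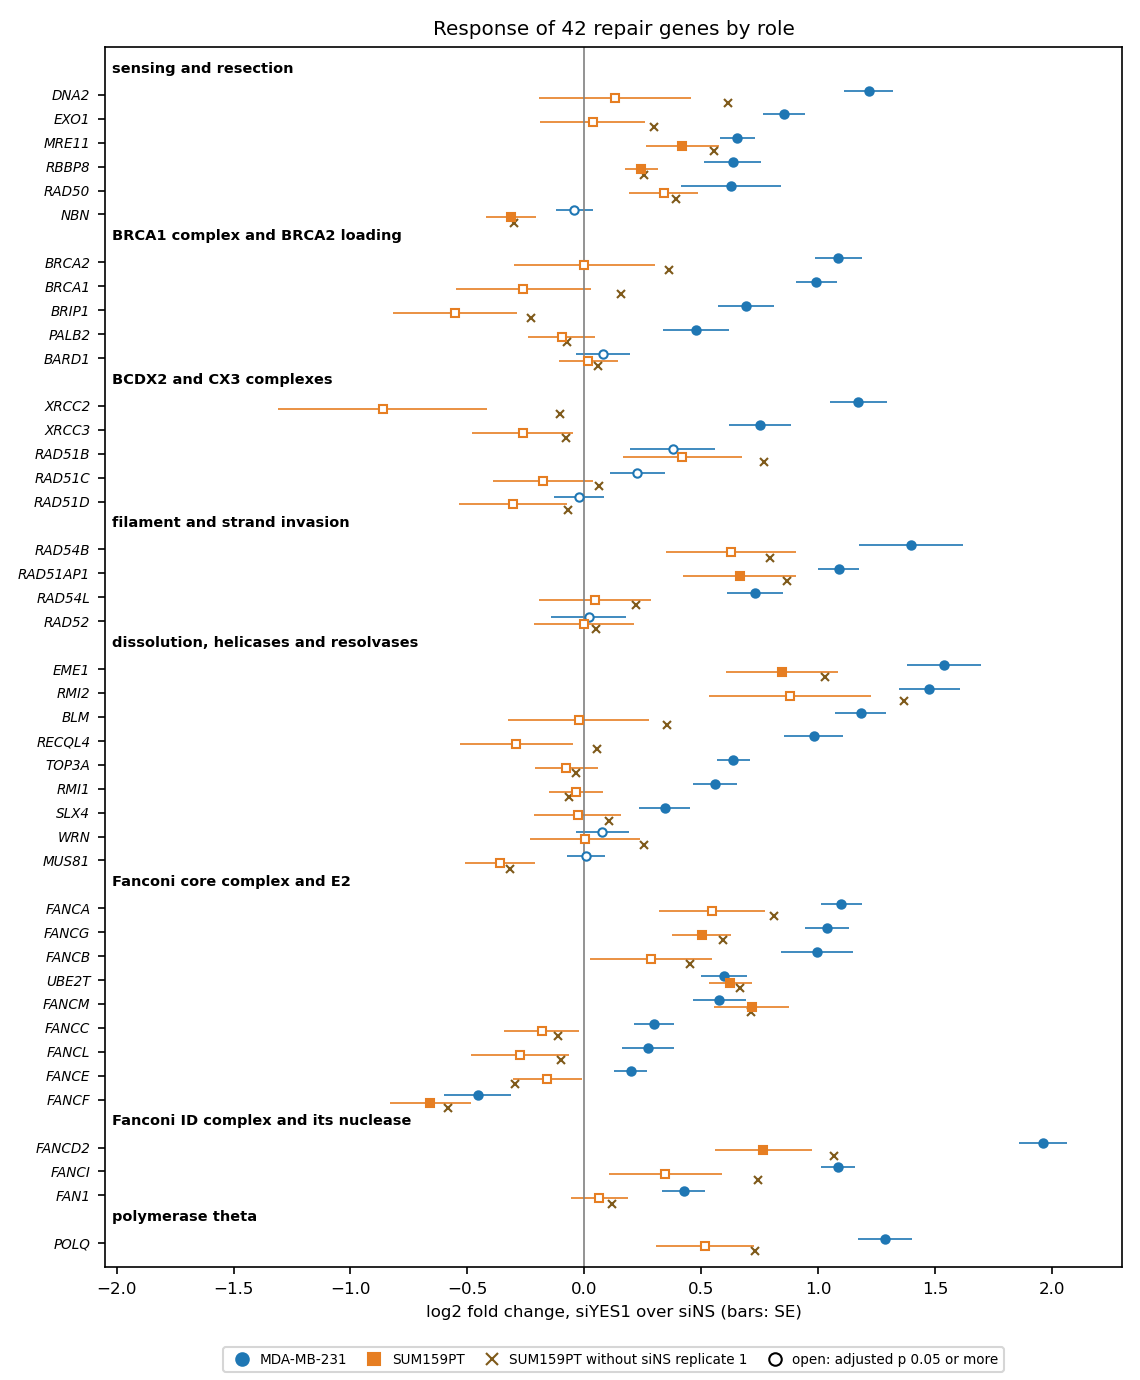
Fitted log2 fold change of siYES1 over siNS for each of the 42 genes, grouped by role (bars: SE; filled: adjusted p under 0.05; crosses: SUM159PT without siNS replicate 1). In MDA-MB-231 (circles) 33 genes are filled to the right of 0, with FANCD2 farthest at 1.96, while in SUM159PT (squares) 8 are filled to the right and 2 to the left.

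The difference between the lines was fitted as an interaction term, line by siRNA, on the 16 libraries together, as the response in MDA-MB-231 minus that in SUM159PT. It was positive and past the threshold for 13 of the 42 genes (EXO1, DNA2, BRCA1, BRIP1, BRCA2, XRCC2, XRCC3, BLM, TOP3A, RMI1, RECQL4, FANCG and FANCD2), 31.0% of them, while 8.85% of the 16299 genes tested were called in that direction. It was negative and past the threshold for 0 of the 42, while 15.4% of all genes were. The median difference was 0.45 over the repair genes and -0.03 over all genes, and 36 of the 42 fitted differences were positive. Without siNS replicate 1 of SUM159PT the median difference was 0.35 over the repair genes and 0.01 over all genes. In the fits of each line alone, 39 of the 42 had the larger log2 fold change in MDA-MB-231. Each fit has its own scaling factors, so the fitted difference is not exactly the gap between the values of the lines. Across the 42 genes the log2 fold changes of the lines had a Pearson r of 0.56 and a Spearman rho of 0.56, given as a description of genes that share libraries.

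In both lines 8 genes rose, while 9.50% of the 12689 genes tested in both did so, and FANCF alone fell in both, while 11.0% of all genes did. There were 25 genes that rose in MDA-MB-231 and did not pass the test in SUM159PT. In opposite directions 0 were called (3.65% of all genes), and 7 passed in neither line (BARD1, RAD51B, RAD51C, RAD51D, RAD52, WRN and MUS81). Shares of all genes are not given for the 25 and the 7. Whether these counts are unusual for the repair genes was therefore not tested. Without siNS replicate 1 of SUM159PT the difference was again called for 13 genes, 12 of them the same, with DNA2 dropping out at 0.56 (edgeR adjusted p = 0.0852) and FANCE added at 0.45. In that fit 1744 of the 16672 genes tested had a positive call, against 1442 of 16299 on all 16 libraries. Without siYES1 replicate 3 of MDA-MB-231, 8 were called, while 6.96% of all genes were called in that direction. Over all genes 36.5% of the calls for the difference were positive, 51.0% with scaling factors set within each line and 67.0% with total counts, where the median of all genes moved to 0.19, that of the repair genes to 0.68, and 24 repair genes were called. With total counts 17.1% of all genes had a positive call.

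**Figure D3:**
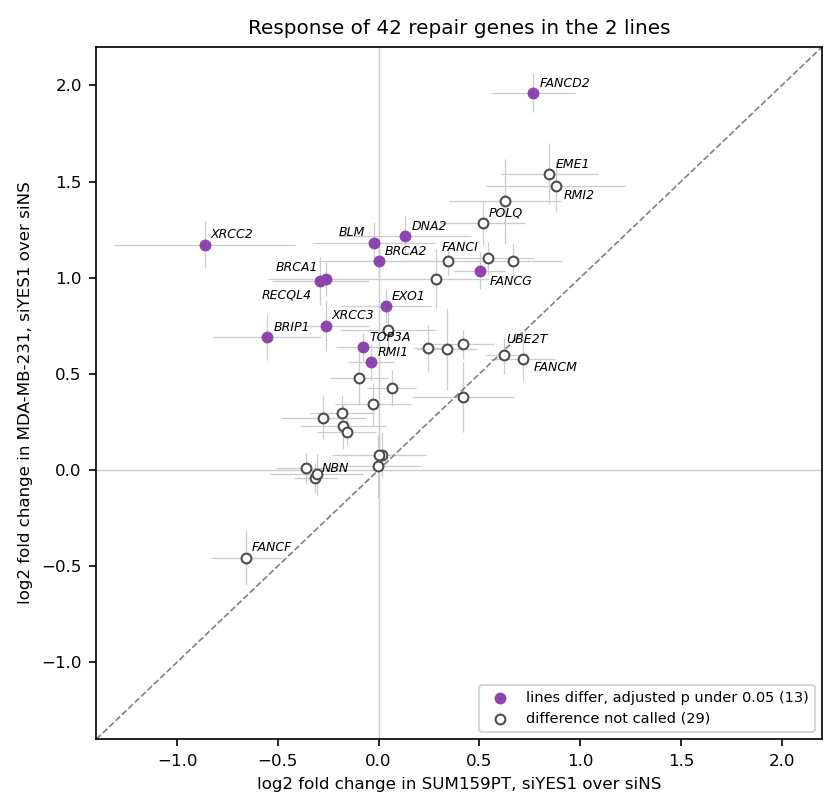
Log2 fold change of siYES1 over siNS in MDA-MB-231 (vertical axis) against SUM159PT (horizontal axis) for each of the 42 genes, with SE bars; the dashed line marks equal responses, and filled points are the 13 genes whose difference passed the test. Of the 42 points, 39 lie above the dashed line, XRCC2 being the farthest from it, while UBE2T and FANCM lie just below it. The points show the fits of each line alone. The interaction term of XRCC2, 1.94, comes from the fit on 16 libraries with its own scaling factors and is not the plotted distance.

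The promoters of these genes were also read, from RefSeq (GRCh38.p14). The table lists 46 windows for 35 of the 42 genes, each of 300 bases, from 250 before to 50 after the start. Words of the E2F site, searched on either strand, were TTCCCGC and its variants TTCGCGC, then also TTGCCGC, and lastly TTGGCGC. They occurred in 25 of the 46 windows (54.3%), against 13% of all 35093 windows and 18.9% of the 14571 windows of coding genes tested in MDA-MB-231. E2F proteins are transcription factors that drive genes of S phase. The word TTTGAA of the cell-cycle element CHR was in 4 windows (8.70%). It was in 15.2% of all windows and in 10.4% of the windows of tested coding genes. CCAAT, which NF-Y binds, was in 15 windows (32.6%), against 34.6% of all windows and 34.4% of those of tested coding genes. Median log2 fold changes of the 22 genes with an E2F word and the 13 without were 0.74 and 0.58 in MDA-MB-231, and -0.03 and 0.24 in SUM159PT on all 8 libraries. These matches are a description of letters in a window, not sites, and UBE2T, FANCM and BRCA2, which rose in MDA-MB-231, had no E2F word in theirs. Below are 130 bases, 100 before and 30 after the start, for FANCD2 and EME1, with the largest rises among genes called in both lines, BRCA1 and XRCC2, among the 4 largest differences between lines, POLQ, which holds words of 2 motifs, and FANCF, which fell. They were picked after their values were seen. BRCA1 has a second window, farther upstream at chr17:43170278-43170577, with no E2F word. Each is written 5′ to 3′ on the gene's strand, and capitals mark an E2F word on either strand or, in POLQ, also TTTGAA.
FANCD2, chr3:10026337-10026466, plus strand: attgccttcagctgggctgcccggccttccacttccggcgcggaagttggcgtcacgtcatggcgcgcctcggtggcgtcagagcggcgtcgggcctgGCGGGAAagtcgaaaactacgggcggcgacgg
EME1, chr17:50373129-50373258, plus strand: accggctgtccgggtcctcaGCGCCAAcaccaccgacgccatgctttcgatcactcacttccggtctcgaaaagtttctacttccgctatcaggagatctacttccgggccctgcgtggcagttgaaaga
BRCA1, chr17:43125335-43125464, minus strand: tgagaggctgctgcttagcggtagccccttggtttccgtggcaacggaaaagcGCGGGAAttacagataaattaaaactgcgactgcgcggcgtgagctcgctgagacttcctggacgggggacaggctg
XRCC2, chr7:152676112-152676241, minus strand: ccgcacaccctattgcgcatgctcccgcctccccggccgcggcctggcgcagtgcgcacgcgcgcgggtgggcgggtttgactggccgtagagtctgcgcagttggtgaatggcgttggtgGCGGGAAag
POLQ, chr3:121545959-121546088, minus strand: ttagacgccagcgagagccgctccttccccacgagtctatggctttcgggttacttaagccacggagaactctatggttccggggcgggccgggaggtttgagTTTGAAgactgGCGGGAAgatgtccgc
FANCF, chr11:22625794-22625923, minus strand: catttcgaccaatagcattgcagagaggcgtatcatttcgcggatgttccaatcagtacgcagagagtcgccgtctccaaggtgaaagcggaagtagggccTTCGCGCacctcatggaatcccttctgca
The FANCD2 word begins 2 bases before the start and the EME1 word 80 before it, and the words in XRCC2, POLQ and FANCF lie after it. FANCF, which fell in both lines, holds an E2F word. Of the 28 genes that rose in MDA-MB-231 and have a window, 18 hold an E2F word and 10 hold none. The part of E2F proteins in these values was not tested.

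Among the genes that sense and trim broken ends, 5 of 6 rose in MDA-MB-231, and 2 rose and 1 fell in SUM159PT. MRE11, the nuclease that starts the cut, is encoded at chr11:94415578-94493908, minus strand (GRCh38, as for the genes below). It had 48.9, 48.9, 48.8 and 50.7 CPM in siYES1, against 33.3, 30.6, 31.4 and 30.0 CPM in siNS, in MDA-MB-231. The SUM159PT libraries held 29.7, 20.9, 29.5 and 27.4 CPM in siYES1, against 25.8, 18.8, 17 and 19.0 CPM in siNS. The groups were clearly apart in MDA-MB-231 and overlapped in SUM159PT. MRE11 rose by 0.65 ± 0.08 on the log2 scale in MDA-MB-231 (edgeR adjusted p = 1.98e-06) and by 0.42 ± 0.15 in SUM159PT (0.0477), or 0.55 ± 0.13 there without siNS replicate 1 (0.00163). Leaving out any of 6 of the 8 libraries ended the SUM159PT call, as did total-count scaling (0.24, edgeR adjusted p = 0.273). NBN, which holds MRE11 and RAD50 at the break and calls in the kinase ATM, had 72.1, 71.4, 78.3 and 73.9 CPM in siYES1, against 85.4, 77.5, 72.0 and 69.5 CPM in siNS, in MDA-MB-231. Its SUM159PT values were 44.1, 34.7, 32.8 and 40.2 CPM in siYES1, against 49.3, 44.0, 49.1 and 46.2 CPM in siNS. The siYES1 libraries were mixed among the siNS libraries in MDA-MB-231, and all but the highest lay below them in SUM159PT. NBN fell by 0.31 ± 0.11 in SUM159PT (log2, edgeR adjusted p = 0.036), a call lost when any of 5 libraries was left out, and stood at -0.04 ± 0.08 in MDA-MB-231 (0.689).

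DNA2, a nuclease and helicase of long-range resection, lies at chr10:68414064-68472121, minus strand. It had 28.6, 29.3, 29.7 and 27.4 CPM in siYES1, against 13.7, 11.1, 14.0 and 10.7 CPM in siNS, in MDA-MB-231. For SUM159PT the values were 6.10, 9.35, 6.72 and 11.1 CPM in siYES1, against 14.3, 5.39, 4.91 and 5.95 CPM in siNS. There siNS replicate 1 lay above every other library and the other 3 siNS libraries below every siYES1 library. The log2 fold change was 1.22 ± 0.10 in MDA-MB-231 (edgeR adjusted p = 7.04e-08) and 0.13 ± 0.33 in SUM159PT (0.786), or 0.61 ± 0.22 in SUM159PT without siNS replicate 1 (0.028). The difference between lines, 0.98 ± 0.35 (edgeR adjusted p = 0.0453), missed the threshold with limma-voom (0.051) and when any of 12 of the 16 libraries was left out. Of the remaining genes of this step, EXO1, a nuclease, rose by 0.85 on the log2 scale in MDA-MB-231 and stood at 0.04 in SUM159PT (0.30 without siNS replicate 1, edgeR adjusted p = 0.161). RBBP8, which switches MRE11 on, rose by 0.63 in MDA-MB-231 and by 0.24 in SUM159PT. RAD50, the ATPase of the MRE11 complex, shares 79.7% of its exonic bases with a gene annotated on the same strand, and its counts, 47 to 324 per library, are uncertain for that reason.

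Of the 5 genes of the BRCA1 complex and BRCA2 loading, 4 rose in MDA-MB-231 and 0 passed the test in SUM159PT, and the difference between lines was called for 3. BRCA1, at chr17:43044295-43170245, minus strand, steers breaks towards recombination. Its MDA-MB-231 values were 58.1, 53.3, 56.2 and 57.7 CPM in siYES1, against 29.7, 26.8, 31.7 and 25.0 CPM in siNS. In SUM159PT it had 11.8, 10.2, 14.3 and 11.6 CPM in siYES1, against 25.5, 7.64, 10.8 and 13.6 CPM in siNS. Every siYES1 library of MDA-MB-231 was above every siNS library, whereas in SUM159PT the siYES1 values fell inside the siNS range, whose top was replicate 1. The log2 fold change was 0.99 ± 0.09 in MDA-MB-231 (edgeR adjusted p = 8.72e-08) and -0.26 ± 0.29 in SUM159PT (0.516), with a difference of 1.16 ± 0.31 (0.00847) that was 0.80 without siNS replicate 1 (0.00313).

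BRCA2, which works at the resected strand, lies at chr13:32315474-32400266, plus strand. In MDA-MB-231 it had 30.5, 30.0, 29.9 and 30.8 CPM in siYES1, against 16.1, 13.8, 15.3 and 11.8 CPM in siNS. The SUM159PT libraries held 9.95, 9.08, 10.7 and 13 CPM in siYES1, against 18, 4.62, 9.40 and 10.7 CPM in siNS. The siYES1 libraries of MDA-MB-231 lay within 1 CPM of each other and above all siNS libraries, and the siYES1 values of SUM159PT fell inside the siNS range. BRCA2 rose by 1.09 ± 0.10 in MDA-MB-231 (log2, edgeR adjusted p = 1.74e-07) and stood at 0.00 ± 0.30 in SUM159PT (0.999). The difference was 0.99 ± 0.33 (edgeR adjusted p = 0.032). It missed the threshold with limma-voom (adjusted p = 0.0522) and when any of 8 libraries was left out. Without siNS replicate 1 of SUM159PT it was 0.69 and still called (edgeR adjusted p = 0.045). PALB2, at chr16:23603160-23641310, minus strand, is the bridge between BRCA1 and BRCA2. It had 17.4, 17.4, 19.9 and 22.3 CPM in siYES1, against 16.9, 15.9, 11.6 and 10.7 CPM in siNS, in MDA-MB-231. Its SUM159PT values were 12.7, 16, 20.3 and 16.4 CPM in siYES1, against 18.6, 16.8, 17.4 and 17.3 CPM in siNS. The MDA-MB-231 groups were just apart. PALB2 rose by 0.48 ± 0.14 in MDA-MB-231 (edgeR adjusted p = 0.00965) and stood at -0.10 ± 0.14 in SUM159PT (0.64).

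BRIP1, a helicase that binds BRCA1, lies at chr17:61681266-61863521, minus strand. Its MDA-MB-231 values were 38.9, 37.2, 37.8 and 37.7 CPM in siYES1, against 29.8, 20.6, 24.7 and 18.7 CPM in siNS. For SUM159PT the values were 7.01, 5.6, 4.23 and 6.62 CPM in siYES1, against 14.0, 7.34, 6.92 and 6.27 CPM in siNS. The first line showed no overlap, and in the second siNS replicate 1 lay far above the other 7 libraries. BRIP1 rose by 0.69 ± 0.12 in MDA-MB-231 (edgeR adjusted p = 0.000117) and stood at -0.55 ± 0.27 in SUM159PT (0.122), with a difference of 1.14 ± 0.29 (0.00621), or 0.88 without siNS replicate 1 (0.00446). BARD1, the partner that BRCA1 needs for its ubiquitin ligase activity, stood at 0.08 ± 0.12 in MDA-MB-231 (edgeR adjusted p = 0.592) and 0.02 ± 0.13 in SUM159PT (0.929).

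Of the 5 genes of the BCDX2 and CX3 complexes, which aid strand exchange, XRCC2 and XRCC3 rose in MDA-MB-231 and none passed the test in SUM159PT on all 8 libraries. XRCC2, at chr7:152644779-152676165, minus strand, had 24.9, 25.4, 29.1 and 31.5 CPM in siYES1, against 14.2, 10.1, 13.9 and 11 CPM in siNS, in MDA-MB-231. In SUM159PT it had 3.10, 3.48, 4.55 and 2.95 CPM in siYES1, against 14.4, 2.19, 4.68 and 4.34 CPM in siNS. The MDA-MB-231 groups did not overlap, and in SUM159PT siNS replicate 1 lay far above the other 7 libraries. XRCC2 rose by 1.17 ± 0.12 in MDA-MB-231 (log2, edgeR adjusted p = 6.19e-07) and stood at -0.86 ± 0.45 in SUM159PT (0.151). The SUM159PT value was called lower with no filter on low counts (-0.85, edgeR adjusted p = 0.00799) and without siNS replicate 2 (-1.13, 0.0317), and was -0.10 without siNS replicate 1 (0.812). The difference, 1.94 ± 0.47 (0.00422), was the largest of the 42 and was 1.25 without siNS replicate 1 (0.00155). XRCC3 had a log2 fold change of 0.75 ± 0.13 in MDA-MB-231 (edgeR adjusted p = 0.000178) and of -0.26 ± 0.22 in SUM159PT (0.37), but 76.7% of its exonic bases are shared with KLC1 on the other strand, so its counts are uncertain. RAD51B, RAD51C and RAD51D stood at 0.38, 0.23 and -0.02 in MDA-MB-231 and at 0.42, -0.18 and -0.31 in SUM159PT. RAD51B rose by 0.77 ± 0.19 in SUM159PT without siNS replicate 1 (edgeR adjusted p = 0.00276), where RAD51C and RAD51D stood at 0.06 and -0.07.

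Of the 4 genes of the filament and strand invasion, 3 rose in MDA-MB-231 and 1 in SUM159PT. RAD51AP1, which helps the broken strand enter the matching copy, lies at chr12:4538798-4560048, plus strand. In MDA-MB-231 it had 39.2, 36.3, 38.8 and 41.1 CPM in siYES1, against 18.2, 19.7, 18.8 and 16.3 CPM in siNS. The SUM159PT libraries held 9.74, 14.5, 19.5 and 14.2 CPM in siYES1, against 12.9, 6.04, 9.58 and 7.93 CPM in siNS. The first line separated fully, and the second overlapped through the lowest siYES1 library and siNS replicate 1. RAD51AP1 rose by 1.09 ± 0.09 in MDA-MB-231 (log2, edgeR adjusted p = 3.84e-08) and by 0.67 ± 0.24 in SUM159PT (0.0458), or 0.87 ± 0.21 there without siNS replicate 1 (0.002). Leaving out any of 6 libraries ended the SUM159PT call, as did total-count scaling (0.49, edgeR adjusted p = 0.154).

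RAD54B, a motor protein of strand invasion, had 4.26, 5.25, 4.50 and 2.96 CPM in siYES1, against 2.01, 1.53, 1.15 and 1.70 CPM in siNS, in MDA-MB-231. Its SUM159PT values were 4.65, 3.48, 5.93 and 4.62 CPM in siYES1, against 4.07, 3.37, 2.80 and 1.88 CPM in siNS. It was among the least abundant of the 42 and rose by 1.40 ± 0.22 in MDA-MB-231 (log2, edgeR adjusted p = 5.94e-05), against 0.63 ± 0.28 in SUM159PT (0.0932), or 0.79 without siNS replicate 1 (0.0275). RAD54B shares 59.1% of its exonic bases with FSBP on the same strand, so these counts are uncertain. RAD54L, a related motor, rose by 0.73 ± 0.12 in MDA-MB-231 (edgeR adjusted p = 7.25e-05) and stood at 0.05 ± 0.24 in SUM159PT (0.897), or 0.22 without siNS replicate 1 (0.439). It shares 25.1% of its exonic bases with LRRC41 on the other strand. RAD52, which anneals single strands, stood at 0.02 ± 0.16 in MDA-MB-231 (edgeR adjusted p = 0.935) and 0.00 ± 0.21 in SUM159PT (0.995).

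Of the 9 genes that unwind or cut joined molecules, 7 rose in MDA-MB-231 and EME1 alone in SUM159PT, and the difference was called for 4. EME1, the partner of the nuclease MUS81, lies at chr17:50373220-50381483, plus strand. Its MDA-MB-231 values were 11.2, 10.9, 16.2 and 14.5 CPM in siYES1, against 3.83, 4.49, 5.61 and 4.28 CPM in siNS. For SUM159PT the values were 7.06, 8.91, 11.5 and 7.93 CPM in siYES1, against 6.76, 5.56, 3.58 and 3.86 CPM in siNS. Neither line showed an overlap. EME1 rose by 1.54 ± 0.16 in MDA-MB-231 (log2, edgeR adjusted p = 5.44e-07) and by 0.85 ± 0.24 in SUM159PT (0.0141), while MUS81 stood at 0.01 ± 0.08 in MDA-MB-231 (0.934) and -0.36 ± 0.15 in SUM159PT (0.0764). In SUM159PT, EME1 stood at 1.03 ± 0.22 without siNS replicate 1 (edgeR adjusted p = 0.000855) and missed the threshold with total-count scaling (0.0507) and without siYES1 replicate 3 (0.0521).

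RECQL4, a RecQ helicase, had 111, 103, 110 and 120 CPM in siYES1, against 42.6, 47.7, 69.1 and 65.1 CPM in siNS, in MDA-MB-231. In SUM159PT it had 15.3, 14.9, 13.5 and 19.99 CPM in siYES1, against 32.3, 15.3, 13.9 and 16.6 CPM in siNS. The MDA-MB-231 groups did not overlap, and in SUM159PT siNS replicate 1 stood above the rest. RECQL4 rose by 0.98 ± 0.12 in MDA-MB-231 (log2, edgeR adjusted p = 5.58e-06) and stood at -0.29 ± 0.24 in SUM159PT (0.375), with a difference of 1.17 ± 0.28 (0.00423), or 0.88 without siNS replicate 1 (0.00141). The complex that dissolves double junctions rose as a whole in MDA-MB-231. The helicase BLM had a log2 fold change of 1.18 in MDA-MB-231 and -0.02 in SUM159PT. The topoisomerase TOP3A had 0.64 in MDA-MB-231 and -0.08 in SUM159PT. The subunit RMI1 had 0.56 in MDA-MB-231 and -0.04 in SUM159PT. RMI2, the remaining subunit, had 1.48 ± 0.13 in MDA-MB-231 (edgeR adjusted p = 8.66e-08) and 0.88 ± 0.35 in SUM159PT (0.0626). Without siNS replicate 1 the SUM159PT values were 0.35 for BLM, -0.03 for TOP3A, -0.06 for RMI1 and 1.37 for RMI2, of which that of RMI2 alone passed the test. WRN, another RecQ helicase, stood at 0.08 in MDA-MB-231 and 0.00 in SUM159PT (0.25 without siNS replicate 1). SLX4, the scaffold of several nucleases, had 0.34 in MDA-MB-231 and -0.03 in SUM159PT. Its MDA-MB-231 groups overlapped, though the rise passed the test (edgeR adjusted p = 0.0149).

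Of the 9 genes of the Fanconi core complex and its E2 enzyme, 8 rose and 1 fell in MDA-MB-231, and 3 rose and 1 fell in SUM159PT. UBE2T, at chr1:202331657-202341980, minus strand, works with the core complex to attach ubiquitin to FANCD2 and FANCI. In MDA-MB-231 it had 54.7, 58.3, 59.2 and 63.2 CPM in siYES1, against 37.7, 44.6, 41.5 and 31.9 CPM in siNS, again with no overlap. Its log2 fold change there was 0.60 ± 0.10 (edgeR adjusted p = 7.5e-05), and the difference from the 0.62 of SUM159PT was -0.12 ± 0.14 (0.567). FANCM, a motor protein that anchors the core complex on DNA, lies at chr14:45135940-45200890, plus strand. Its MDA-MB-231 values were 19.0, 19.0, 17.7 and 19.5 CPM in siYES1, against 15.0, 10.1, 13 and 12.2 CPM in siNS. The SUM159PT libraries held 10.3, 11.7, 13 and 14.1 CPM in siYES1, against 7.56, 6.22, 8.02 and 8.09 CPM in siNS. Neither line showed an overlap, and siNS replicate 1 of SUM159PT was not raised for this gene. FANCM rose by 0.58 ± 0.12 in MDA-MB-231 (log2, edgeR adjusted p = 0.000489) and by 0.72 ± 0.16 in SUM159PT (0.00384), with a difference of -0.23 ± 0.20 (0.431).

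FANCA, a core subunit, lies at chr16:89737549-89816657, minus strand. It had 55.2, 52.7, 47.5 and 52.0 CPM in siYES1, against 24.1, 22.4, 26.9 and 23.4 CPM in siNS, in MDA-MB-231. Its SUM159PT values were 11.8, 11.7, 14.6 and 11.9 CPM in siYES1, against 13.1, 6.93, 5.64 and 8.68 CPM in siNS. Only siNS replicate 1 of SUM159PT lay among the siYES1 libraries of its line. FANCA rose by 1.10 ± 0.09 in MDA-MB-231 (log2, edgeR adjusted p = 2.37e-08) and stood at 0.54 ± 0.23 in SUM159PT (0.0769), or 0.81 ± 0.17 without siNS replicate 1 (0.000839). On all 8 SUM159PT libraries it was called by DESeq2 (adjusted p = 0.0451), by limma-voom (0.0371) and by edgeR with no filter on low counts (0.0198), and so it was in a model of all 16 libraries (0.0095). Its exons share 23.6% of their bases with ZNF276 on the other strand.

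FANCF, the core subunit that joins the others to FANCM, lies at chr11:22622890-22625841, minus strand. In MDA-MB-231 it had 4.33, 4.61, 5.88 and 5.67 CPM in siYES1, against 6.34, 6.77, 7.33 and 7.68 CPM in siNS. For SUM159PT the values were 8.93, 11.4, 13.3 and 14.4 CPM in siYES1, against 22.2, 14.7, 18.7 and 20.4 CPM in siNS. All siYES1 libraries lay below all siNS libraries in both lines. FANCF fell by 0.46 ± 0.14 on the log2 scale in MDA-MB-231 (edgeR adjusted p = 0.0139) and by 0.66 ± 0.17 in SUM159PT (0.00936), the only one of the 42 to fall in both, and the MDA-MB-231 call missed the threshold without siYES1 replicate 1 (-0.38, 0.0521). FANCG and FANCB, further core subunits, had 1.04 and 1.00 in MDA-MB-231 and 0.50 and 0.29 in SUM159PT, of which the FANCB value in SUM159PT did not pass the test. FANCC, FANCE and FANCL, the last being the ubiquitin ligase, rose by 0.30, 0.20 and 0.27 in MDA-MB-231 and stood at -0.18, -0.16 and -0.27 in SUM159PT. The FANCL rise in MDA-MB-231 only just passed the test (edgeR adjusted p = 0.0498), and its groups overlapped. In SUM159PT without siNS replicate 1 the values were 0.45 for FANCB, -0.11 for FANCC and -0.10 for FANCL, none past the test, and FANCE fell as given above.

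All 3 genes of the FANCD2-FANCI pair and the nuclease FAN1 rose in MDA-MB-231, and FANCD2 alone in SUM159PT. FANCD2, at chr3:10026414-10101930, plus strand, averaged 54.2 ± 1.78 CPM in siYES1 and 13.9 ± 2.11 CPM in siNS in MDA-MB-231 (SD, n = 4 each), a ratio of 3.89. In SUM159PT it had 37.4, 35.0, 39.8 and 45.3 CPM in siYES1, against 36.8, 16, 19.5 and 20.4 CPM in siNS. Without siNS replicate 1 the SUM159PT groups would be well apart, and that library alone reached the siYES1 range. The log2 fold change in SUM159PT was 0.77 ± 0.21 (edgeR adjusted p = 0.0115), 1.07 ± 0.12 without siNS replicate 1, and 0.58 with total-count scaling (0.0605). The lines differed by 1.10 ± 0.25 (0.00251), or 0.85 without that library (0.000289).

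FANCI, which clamps onto DNA with FANCD2, lies at chr15:89243949-89317261, plus strand. Its MDA-MB-231 values were 88.3, 88.3, 85.4 and 83.2 CPM in siYES1, against 40.5, 40.2, 42.7 and 39.3 CPM in siNS. The SUM159PT libraries held 36.1, 33.4, 40.3 and 37 CPM in siYES1, against 50.3, 19.2, 21.5 and 24.6 CPM in siNS. The MDA-MB-231 groups were tight and far apart, and in SUM159PT siNS replicate 1 lay above every siYES1 library and the other 3 siNS libraries below. FANCI rose by 1.09 ± 0.07 in MDA-MB-231 (log2, edgeR adjusted p = 3.89e-09) and stood at 0.35 ± 0.24 in SUM159PT (0.289), or 0.74 ± 0.11 without siNS replicate 1 (1.89e-05). FAN1 rose by 0.42 ± 0.09 in MDA-MB-231 (edgeR adjusted p = 0.00109) and stood at 0.06 ± 0.12 in SUM159PT (0.715). It shares 24.3% of its exonic bases with MTMR10 on the other strand.

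POLQ encodes polymerase theta, which joins ends at short matching stretches when recombination fails, and lies at chr3:121431427-121546641, minus strand. In MDA-MB-231 it had 15.3, 16.3, 15.9 and 14.0 CPM in siYES1, against 7.20, 5.87, 6.13 and 5.98 CPM in siNS. Its SUM159PT values were 14.3, 13.8, 16.5 and 16.2 CPM in siYES1, against 15.2, 6.57, 11.2 and 9.43 CPM in siNS. The MDA-MB-231 groups did not overlap, and in SUM159PT siNS replicate 1 again lay among the siYES1 libraries. POLQ rose by 1.29 ± 0.11 in MDA-MB-231 (log2, edgeR adjusted p = 1.05e-07) and stood at 0.52 ± 0.21 in SUM159PT (0.071), or 0.73 ± 0.17 without siNS replicate 1 (0.00153). DESeq2 and limma-voom called the SUM159PT rise on all 8 libraries (adjusted p = 0.0396 and 0.0398).

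**Figure D4:**
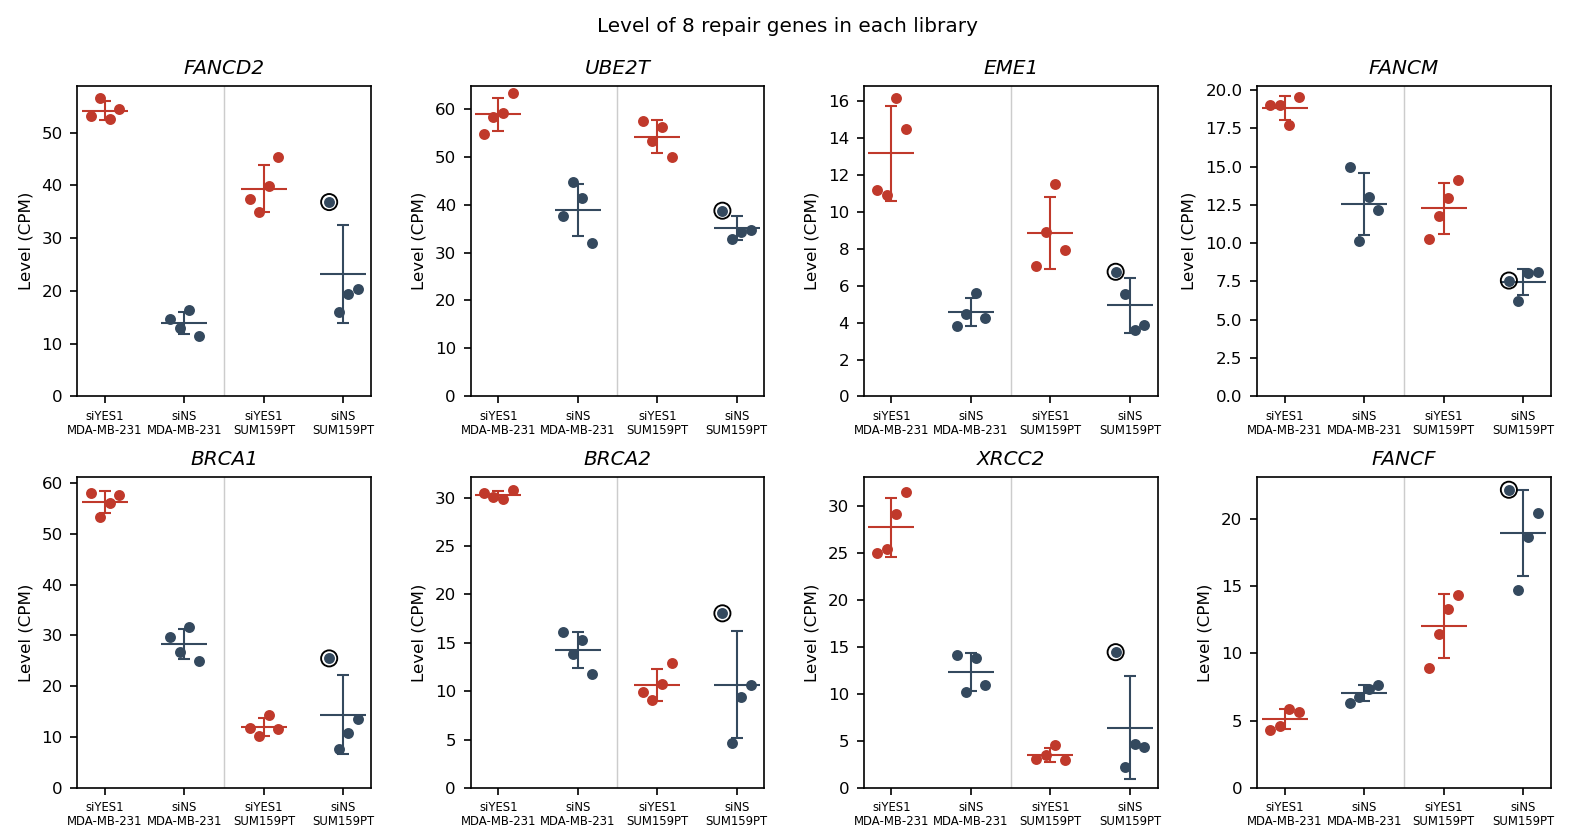
Level of 8 of the repair genes in each library, in CPM scaled within each line, with a line at the mean and bars of 1 SD (n = 4 libraries per group); siYES1 in red, siNS in dark blue, and a ring around siNS replicate 1 of SUM159PT. FANCD2, UBE2T, EME1 and FANCM are higher in siYES1 in both lines, BRCA1, BRCA2 and XRCC2 are higher in siYES1 in MDA-MB-231 with overlapping groups in SUM159PT, and FANCF is lower in siYES1 in both lines.

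Levels between genes were compared per length, as TPM (a transcript's share of a library once counts are divided by length), over the exonic bases of GENCODE 29; the lines come from separate tables, and their levels are set side by side with no test. The median level of the 42 genes was 18.4 TPM in siYES1 and 9.99 TPM in siNS in MDA-MB-231, and 8.46 TPM in siYES1 and 9.44 TPM in siNS in SUM159PT. TPM carry no TMM scaling, and the SUM159PT siNS levels include replicate 1, so these medians do not give the response. The median fitted log2 fold change in SUM159PT, with TMM scaling, was 0.01, or 0.24 without siNS replicate 1. UBE2T was the most abundant of the 42 in every group, at 135 TPM in siYES1 and 92.2 TPM in siNS in MDA-MB-231 and at 114 TPM in siYES1 and 83.5 TPM in siNS in SUM159PT. The lowest were RAD51B at 2.42 TPM in siYES1 and RAD54B at 1.18 TPM in siNS in MDA-MB-231, and RAD51D at 2.47 TPM in siYES1 and RAD54B at 2.24 TPM in siNS in SUM159PT. Across the 42 genes the siNS levels of the lines had a Spearman rho of 0.79. Within a line the siNS level and the log2 fold change had a rho of -0.17 in MDA-MB-231 and -0.19 in SUM159PT, as descriptions across genes.

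Among 35 further genes of the pathways, 15 of the 33 tested rose and 2 fell in MDA-MB-231, with a median log2 fold change of 0.24, and 4 of 31 rose and 4 fell in SUM159PT, at a median of 0.05, or 9 and 4 at a median of 0.15 when siNS replicate 1 was left out. Of all genes tested, 24.9% rose and 27.5% fell in MDA-MB-231, and 17.7% rose and 19.0% fell in SUM159PT. Without siNS replicate 1, 21.0% of all genes rose and 21.5% fell in SUM159PT. MCM8, a helicase of recombination, had 1.22 in MDA-MB-231 and 0.28 in SUM159PT. GEN1, a nuclease that cuts joined molecules, had 1.19 in MDA-MB-231 and -0.27 in SUM159PT, with a difference of 1.36 ± 0.31 (edgeR adjusted p = 0.00269). The SUM159PT values of these 2 genes did not pass the test on all 8 libraries, and without siNS replicate 1 MCM8 rose by 0.72 (edgeR adjusted p = 0.000361). FAAP100, a core-complex partner, fell by 0.66 in MDA-MB-231 and by 0.82 in SUM159PT, like FANCF.

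Damage-signalling genes rose in 13 of 18 cases in MDA-MB-231 (0 fell, median 0.50), and 5 rose and 1 fell in SUM159PT (median 0.12), or 9 and 0 without siNS replicate 1 (median 0.26). MDC1, which marks chromatin around a break, rose in both lines, by 1.32 in MDA-MB-231 and 0.89 in SUM159PT. TIPIN, a fork-protection factor, rose by 0.44 in MDA-MB-231 and fell by 0.94 in SUM159PT, with a difference of 1.28 ± 0.34 (edgeR adjusted p = 0.00827). The SUM159PT value of TIPIN without siNS replicate 1 was -0.60 and no longer passed the test (edgeR adjusted p = 0.0954), and the difference was 0.99 (0.00781). Of 19 tested genes of end joining, the competing route of repair, 7 rose and 1 fell in MDA-MB-231 (median 0.21), and 2 rose and 2 fell in SUM159PT (median 0.13), or 5 and 3 without siNS replicate 1 (median 0.13). TP53BP1, which shields ends from resection, fell by 0.37 in MDA-MB-231 and stood at 0.17 in SUM159PT, with a difference of -0.63 ± 0.18 (edgeR adjusted p = 0.0108). Its SUM159PT value was 0.31 without siNS replicate 1, past the test (edgeR adjusted p = 0.0214). Of 37 replication genes, 36 were higher and 0 lower in MDA-MB-231 (median 0.74), and 3 were higher and 5 lower in SUM159PT (median -0.29). The sign of that median rests on siNS replicate 1: without it 6 were higher and 5 lower in SUM159PT, with a median of 0.14. G2/M genes were higher in 37 of 38 cases in MDA-MB-231 and in 33 of 38 in SUM159PT (median 0.88), or 37 of 38 without siNS replicate 1 (median 0.98). Beside these lists, 24.9% of all genes rose and 27.5% fell in MDA-MB-231, and 17.7% rose and 19.0% fell in SUM159PT. Without siNS replicate 1 the SUM159PT shares were 21.0% and 21.5%. What part these lists have in the repair genes' values was not tested.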

How the data were processed

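Polyadenylated RNA was sequenced from 16 libraries, 4 for each siRNA in each of 2 lines. Per the submitters' processing notes, the build was hg38 and the tools were HISAT2 2.0.5, an aligner, and featureCounts 1.5.0-p3, a read counter. Annotation release, strand setting and treatment of reads fitting several genes: not given in the sources used here. The authors deposited raw integer counts per gene, 1 table per line. Gene IDs were matched to GENCODE 29 (GRCh38), all 58735 of them.

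The 8 libraries of each line were modelled with edgeR 4.0.16 under R 4.3.3, using TMM factors, filterByExpr and the quasi-likelihood F test; the difference between lines was an interaction term fitted on all 16. Calls are at a Benjamini-Hochberg adjusted p under 0.05 over all genes tested, and standard errors are the absolute log2 fold change divided by the square root of F. All 42 members passed the filter in each fit. CPM are TMM-scaled within a line, and library medians use log2 of CPM plus 0.5. Libraries of a group differed by a chi-squared per degree of freedom of 2.15 to 44.7, so none is a copy of another, and edgeR's common coefficient of variation came to 0.0988 (MDA-MB-231) and 0.165 (SUM159PT). In SUM159PT siNS, replicate 1 differed from the others by 30.0 to 44.7 and the others among themselves by 6.50 to 12.2.

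Values in every library were given for 19 genes: 7 always named (BRCA1, BRCA2, PALB2, FANCD2, FANCI, UBE2T and POLQ), the called gene of the largest change in each role and line, each gene that fell, and the 4 largest called differences between lines. The members, roles and other lists were chosen with earlier results of these data known. Overlapping exonic bases were counted in GENCODE 29. Promoter windows are RefSeq's (GRCh38.p14). Alternatives were RLE and total-count scaling, no filter, a mean of at least 1 CPM, DESeq2 1.42.0, limma-voom 3.58.1, replicate number as a block, a joint model of 16 libraries, leaving out each library and shorter promoter windows; scaling factors set within each line were added after the data were seen. The fits were tested on simulated data. A gene of the pathway is not reported here.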

Additional observations from a re-analysis of the deposited data

Results flagged for a closer look

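Among the 19 genes whose libraries are all given, each group of 4 libraries was searched for a library far from its nearest neighbour (Dixon's test at its 95% critical value), and 5 of 76 groups held such a library, where chance flags about 1 in 20. siNS replicate 1 of SUM159PT was the far library for DNA2 (14.3 CPM), BRIP1 (14.0 CPM) and RECQL4 (32.3 CPM). The others were MRE11 in siYES1 replicate 4 of MDA-MB-231 (50.7 CPM) and FANCA in siYES1 replicate 3 of SUM159PT (14.6 CPM), both close to their groups in size.

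The response differed between MDA-MB-231 and SUM159PT, by the interaction of line and siRNA (edgeR adjusted p under 0.05), for 13 genes, each with the larger value in MDA-MB-231. The differences in log2 fold change were 1.94 for XRCC2, 1.17 for RECQL4, 1.16 for BRCA1, 1.14 for BRIP1, 1.11 for BLM, 1.10 for FANCD2, 0.99 for BRCA2, 0.98 for DNA2, 0.92 for XRCC3, 0.72 for EXO1, 0.62 for TOP3A, 0.50 for RMI1 and 0.44 for FANCG. These values are on all 16 libraries. Without siNS replicate 1 of SUM159PT they were 0.69 for BRCA2, 0.79 for BLM and XRCC3 and 0.51 for EXO1, each still called. TOP3A and RMI1 were then larger, at 0.63 and 0.58, and DNA2 dropped out as given above. Of these 13, only FANCD2 and FANCG also rose in SUM159PT on all 8 libraries, and DNA2 joined them without siNS replicate 1.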

How the results depend on the processing

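The count of repair genes that rose in MDA-MB-231 was 29 to 33 over the alternatives on all libraries and 29 to 34 with a library left out, where the median log2 fold change was 0.62 to 0.69; 0 to 1 fell, 0 without siYES1 replicate 1. Of all genes, 13.1% to 26.1% rose and 13.8% to 30.4% fell over the alternatives on all libraries. With a library left out, 21.6% to 25.9% rose and 24.5% to 27.5% fell. In SUM159PT a left-out library gave 4 to 16 that rose (16 without siNS replicate 1, 4 without siYES1 replicate 3), 1 to 3 that fell (3 without siNS replicate 1 or 2, and 1 without siNS replicate 4 or without siYES1 replicate 2, 3 or 4) and a median of -0.073 to 0.24. In these fits 13.6% to 21.0% of all genes rose and 15.4% to 21.5% fell. With all 8 SUM159PT libraries, 2 rose with total-count scaling (9.63% of all genes) and 8 to 9 with RLE, the 1 CPM mean and the block (16.8% to 19.2%). There were 11 with DESeq2 (19.3%) and with limma-voom (18.7%), and 12 with no filter (9.70%) and with the joint model (20.3%). Over these settings 2 to 3 fell, while 10.7% to 28.8% of all genes did. The positive difference between lines was called for 8 to 15 repair genes with a library left out (8 without siYES1 replicate 3 of MDA-MB-231). In these fits 1167 to 1744 of the 16560 to 16807 genes tested were called in that direction. With total counts it was called for 24 repair genes and for 2795 of the 16299 genes tested. The negative difference was called for 0 to 0 repair genes. Relative to the median of all genes, the repair genes stood at 0.64 in MDA-MB-231, 0.03 to 0.04 in SUM159PT and 0.48 to 0.49 for the difference under every scaling. With the 250 bases before the start alone, 15 of the 46 windows of repair genes held an E2F word, against 25 with all 300 bases. In those 250 bases 3821 of all 35093 windows held one. So did 2335 of the 14571 windows of coding genes tested in MDA-MB-231.

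Of the results for the 19 genes under alternatives, 967 kept direction and call, 48 lost a call, 35 gained one and 14 changed sign. In SUM159PT, DNA2 stood at -0.058 and BRCA2 at -0.19 with total counts and BRCA2 at -0.0065 with a mean of at least 1 CPM. With a library left out, SUM159PT values ran from -0.037 to 0.61 for DNA2, -0.24 to 0.36 for BRCA2, -0.46 to 0.16 for BRCA1, -0.21 to 0.011 for PALB2 and -0.42 to 0.055 for RECQL4, and NBN in MDA-MB-231 from -0.082 to 0.024. The difference between lines ran from -0.016 to 0.20 for FANCF with a library left out, and for UBE2T was 0.10 with total counts. None of these changes of sign involved a called value, and the cause was not tested.

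Same-numbered libraries did not deviate together (correlations of -0.17 to 0.05 in MDA-MB-231 and -0.08 to 0.12 in SUM159PT), so the numbers do not pair them. With replicate number as a block, 31 repair genes rose and 1 fell in MDA-MB-231, 9 rose and 2 fell in SUM159PT, and the difference was called for 11. Of all genes, 23.6% then rose and 26.0% fell in MDA-MB-231, and 16.8% rose and 17.5% fell in SUM159PT. The positive difference was called for 7.80% of them. The handling of reads that fit several genes limits the genes with shared exons: 23 of the 42 share some exonic bases with another gene.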
